A study of Mus musculus with 12 samples.

Results

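Untreated Nfkb2 knockout mice (Nfkb2-/-) were compared with wild-type (WT) mice given dextran sulfate sodium (DSS), to ask how far the uninjured knockout resembles injured wild-type colon epithelium and in which functions it does not. The comparison takes the samples by their titles. Knockout untreated 1 to 3 stand on one side and WT treated 1 to 3 on the other, which makes 6 of the 12 samples of the series, and the 3 untreated WT samples are given beside them for reference. All mice were C57BL/6 and 7 to 9 weeks old, DSS was given for 48 h, and the untreated mice received none. Intestinal epithelial cells were shaken off colon pieces with EDTA, and by the labels about 90% of such cells are typically EpCAM-positive and CD45.2-negative, so that other cells contribute RNA to each sample. The labels give no further detail of the Nfkb2 allele, and the 2 groups differ both in genotype and in treatment, so that a difference between them cannot be assigned to one of these. The libraries were also numbered by genotype, and library order and genotype cannot be told apart.

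Nfkb2 encodes p100, which is cut to the p52 subunit of NF-kB and, uncut, holds other NF-kB dimers inactive. NF-kB induces chemokines, cytokines and its own inhibitors in epithelium that meets bacteria or cytokines. DSS breaks the epithelial barrier of the colon, and the surface colonocytes that it injures normally absorb salt, water and short-chain fatty acids.

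Total counts were 7246017 to 8117740 in the untreated knockout samples and 6043476 to 7353227 in the DSS-treated WT samples, with 16666 to 17120 and 16557 to 16833 genes detected, respectively. Expression values are CPM, counts scaled to library size by TMM, sorted from low to high in each group. In a single library, 3 counts equal 0.37 to 0.414 CPM in the knockout and 0.408 to 0.496 CPM in the DSS-treated WT group. Nfkb2 (ENSMUSG00000025225.13, chromosome 19, 46304320 to 46312385, plus strand of GRCm38) was 11.7, 13.9 and 17.4 CPM in untreated knockout and 39.6, 41.6 and 46.1 CPM in DSS-treated WT mice, and 30.8, 36.1 and 43.7 CPM in untreated WT samples. The targeted gene was thus lowest in the knockout samples, without overlap (log2 difference of untreated knockout minus DSS-treated WT -1.56, SE 0.20, edgeR quasi-likelihood test with Benjamini-Hochberg adjusted p = 0.000262). Reads were counted without strand, and 18.1% of its exonic bases also lie in Psd or in a further annotated gene, so some of the remaining counts may belong to these. The 15 epithelial markers summed to 33000 to 35500 CPM in the knockout and 34200 to 36100 CPM in the DSS-treated WT samples. The 28 T lymphocyte markers summed to 124 to 137 against 55.1 to 72.8 CPM, the 12 markers shared by leukocytes to 197 to 233 against 94.2 to 128 CPM, and the 26 myeloid markers to 142 to 157 against 222 to 229 CPM. In untreated WT these 3 sums were 20.9 to 42, 55.5 to 70.8 and 80.2 to 88.9 CPM. The T lymphocyte and shared leukocyte transcripts therefore moved with the groups. In the knockout and the DSS-treated WT samples, most of the myeloid sum was Cd14. The epithelium can also express Cd14, so that sum cannot be assigned to myeloid cells. The part of transcripts of other cell types in the differences below was not tested. In bulk RNA, fewer cells of a type and less RNA per cell cannot be told apart.

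Over the whole profile, the untreated knockout lay at a similar distance from the injured and from the uninjured WT epithelium. The root mean square difference of log2 CPM over 12522 genes averaged 0.763 between untreated knockout and DSS-treated WT samples (0.691 to 0.814 over 9 pairs). It averaged 0.81 between untreated knockout and untreated WT samples (0.745 to 0.858) and 0.834 between the WT groups (0.763 to 0.877). The first mean minus the second was -0.0469, and an exact two-sided permutation of the 6 WT labels gave p = 0.1, the smallest value that 20 arrangements allow. The samples within a group were not equally alike, at 0.598 on average within the untreated knockout, 0.621 within the DSS-treated WT and 0.789 within the untreated WT group. When this spread was subtracted, a step added after seeing the data, the order turned, with 0.46 to DSS-treated WT and 0.408 to untreated WT (difference 0.0515, exact permutation p = 0.4). Nearness of the whole profile to the injured state is therefore not shown by these samples.

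**Figure D1:**
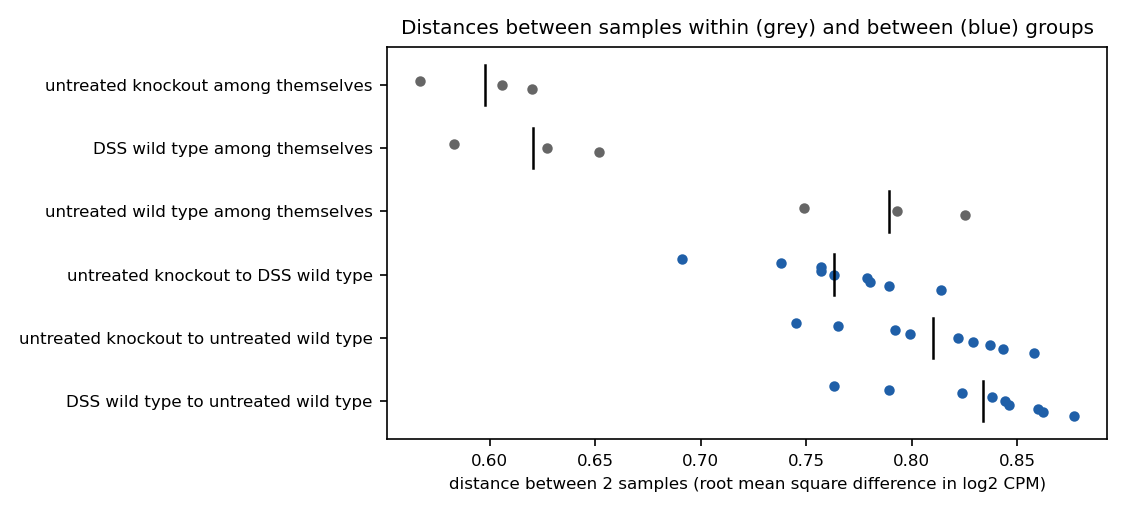
Distance between single samples, as the root mean square difference of log2 CPM over the 12522 genes tested, for pairs within and between groups, with points for pairs and a line for the mean. The pairs of untreated knockout with DSS-treated WT samples (0.691 to 0.814) overlap those of untreated knockout with untreated WT samples (0.745 to 0.858).

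Gene by gene, most of the transcriptome was within 2-fold in these groups. The 95% interval of the difference lay wholly within 2-fold for 7508 of 12522 genes (60%). A difference was called (adjusted p under 0.05) for 560 genes (4.47%), of which 284 (2.27%) were higher and 276 (2.2%) lower in the untreated knockout. Of the called genes, 252 (2.01%) differed by at least 2-fold, 145 of them higher and 107 lower, while 160 (1.28%) were called and yet within 2-fold. Another 4614 genes (36.8%) were neither called nor shown to be within 2-fold. In the 560 called genes the 2 groups did not overlap, as was the case for 3435 of all genes (27.4%). With untreated WT as the reference, 436 genes (3.48%) were called in the untreated knockout, 215 (1.72%) higher and 221 (1.76%) lower. In DSS-treated WT mice 789 (6.3%) were called, 351 (2.8%) higher and 438 (3.5%) lower. These comparisons share the untreated WT samples with each other and a group each with the one above, so their values are only set side by side below. The number of calls was lower when any 1 of the 6 libraries was left out. It was 327, 329 and 343 without knockout replicate 1, 2 or 3, and 305, 393 and 315 without DSS-treated replicate 1, 2 or 3.

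Among well expressed genes, those with the largest differences included colonocyte transporters such as Slc9a3 and Aqp8 on the higher side and secreted defence proteins such as Reg3b on the lower side, beside genes of other kinds. The 12 genes with the largest difference in each direction, among called genes averaging 3 or more log2 CPM, kept their call in every other setting tried. Slc9a3 (ENSMUSG00000036123.6, chromosome 13, 74121457 to 74169442, plus strand), the brush border sodium-proton exchanger NHE3, was 82.5, 92.8 and 94.8 CPM in untreated knockout and 9.13, 10.3 and 12 CPM in DSS-treated WT mice. The 2 groups did not overlap (log2 difference 3.10, SE 0.15, edgeR adjusted p = 2.34e-08), and untreated WT mice had 119, 125 and 135 CPM. Aqp8 (ENSMUSG00000030762.10, chromosome 7, 123462291 to 123468004, plus strand), the aquaporin of surface colonocytes, was 465, 472 and 491 CPM in untreated knockout and 40.8, 41.5 and 58.3 CPM in DSS-treated WT mice, again without overlap (log2 difference 3.34, adjusted p = 1.04e-06). Car4, a membrane-bound carbonic anhydrase, was 870.1, 875 and 922 CPM in untreated knockout and 123, 127 and 141 CPM in DSS-treated WT mice (log2 difference 2.77, adjusted p = 3.01e-07). Tmigd1, an adhesion protein of the brush border, followed the same order with 45.3, 53 and 55.3 CPM in untreated knockout and 5.77, 6.80 and 7.66 CPM in DSS-treated WT mice (log2 difference 2.92, adjusted p = 3.01e-07). The remaining genes on the higher side were Gm11735 (4.65), 2010109I03Rik (3.51), Cttnbp2 (2.66), the fatty acid transporter Slc27a2 (2.59), Clca4a (2.54), the fucosyltransferase gene Fut9 (2.38), the kinase gene Stk10 (2.22) and the guanylin gene Guca2a (2.22), given as log2 differences. Of the transcript sequence of the pseudogene Gm11735, 53.4% is shared with St6galnac1 in stretches of 50 bases. For Clca4a 41.0% is shared with other genes, so that the assignment of the counts of both is uncertain.

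On the lower side, Lrg1 (ENSMUSG00000037095.7, chromosome 17, 56119678 to 56122001, minus strand), a secreted acute-phase glycoprotein gene, was 1.19, 1.47 and 1.62 CPM in untreated knockout and 298, 314 and 346 CPM in DSS-treated WT mice. The knockout samples lay below even the untreated WT samples, which had 3.61, 4.37 and 5.72 CPM (log2 difference -7.80, SE 0.22, edgeR adjusted p = 2.57e-11). Reg3b, a secreted antibacterial lectin, was 9.56, 11.6 and 14.9 CPM in untreated knockout and 175, 179.8 and 240 CPM in DSS-treated WT mice (log2 difference -4.04, adjusted p = 0.000298). Its untreated WT values of 75.6, 81.3 and 374 CPM spanned the DSS-treated ones and lay above every knockout value. Muc1, a transmembrane mucin, was 7.49, 8.88 and 10.9 CPM in untreated knockout and 87, 104 and 109 CPM in DSS-treated WT mice (log2 difference -3.46, adjusted p = 3.14e-07), and untreated WT mice had 8.34, 11.8 and 14.3 CPM. Tac1, which encodes the peptide substance P, was 4.27, 4.44 and 7.96 CPM in untreated knockout and 82.5, 88.5 and 89.7 CPM in DSS-treated WT mice (log2 difference -3.96, adjusted p = 7.81e-07). The other genes of this side were Hspa1a (-3.65), the phospholipase gene Pla2g2a (-3.34), Ido1 (-3.13), Lbp (-2.98), Plet1 (-2.95), Clca4b (-2.93), the immunoglobulin A chain Igha (-2.90) and Duoxa2 (-2.45). Of the transcript sequence, 66.3% of Hspa1a and 41.1% of Duoxa2 is shared with other genes.

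**Figure D2:**
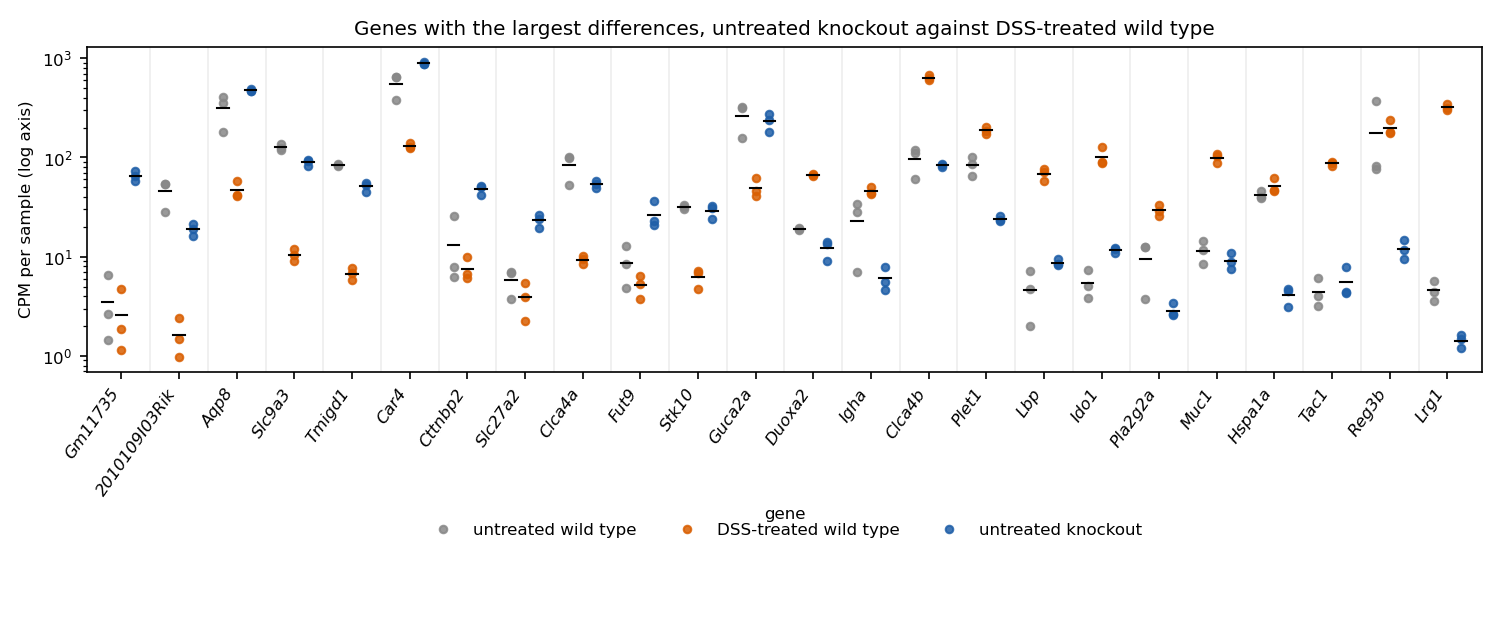
CPM on a log axis in each sample of untreated WT, DSS-treated WT and untreated knockout mice for the 12 higher and 12 lower genes with the largest differences. For Slc9a3 and Tmigd1 the untreated knockout samples lie between the DSS-treated and the untreated WT samples, and for Lrg1 they lie below both.

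The functions were described with 42 hand-made gene lists of 1190 distinct genes, 1006 of which passed the low-count filter and 184 did not. Of the 1006 tested, 92 were called higher and 88 lower in the untreated knockout, and 380 called genes are on no list. The median log2 difference over all genes was 0.00376, which is the level against which a list's median is read. The higher, lower and within 2-fold members of every list are likewise read against 2.27%, 2.2% and 60% of all genes.

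**Figure D3:**
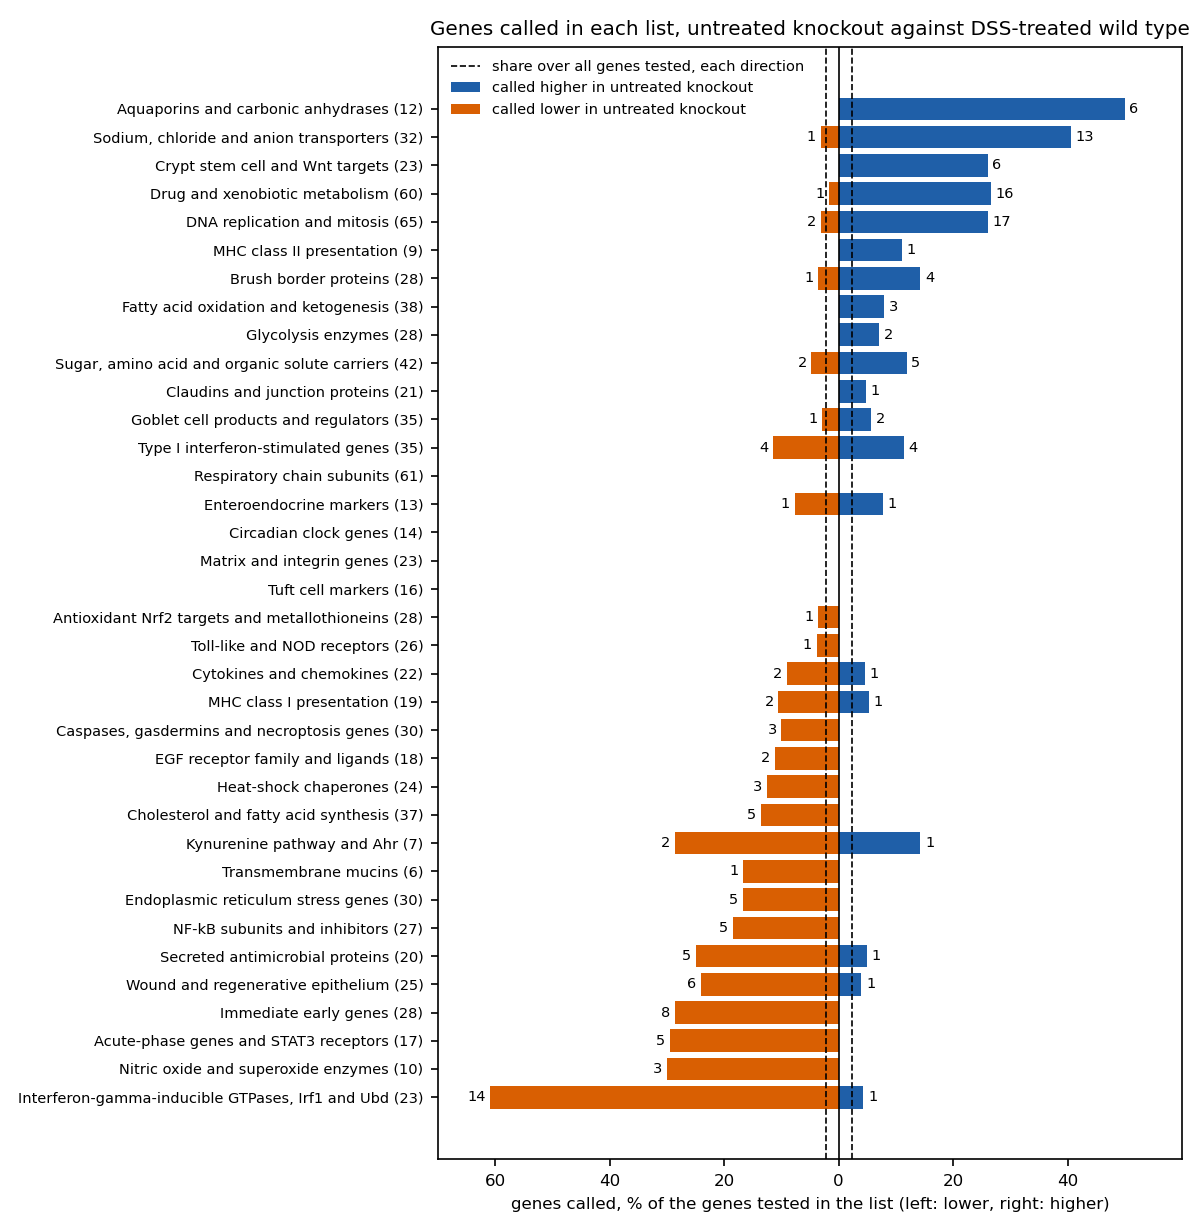
Percentage of a list's tested members called higher (to the right) or lower (to the left) in untreated knockout than in DSS-treated WT samples, beside the 2.27% and 2.2% of all genes. The cell type marker lists are left out. The interferon-gamma list extends furthest to the lower side (14 of 23 members) and the aquaporin and carbonic anhydrase list furthest to the higher side (6 of 12).

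Of 27 tested NF-kB subunits, kinases, receptors and inhibitors, 5 were lower in the untreated knockout (against 2.2% of all genes) and none were higher. The 5 include Nfkb2, the targeted gene, whose lower level follows from the design. Of the 27, counted over called and uncalled members alike, 18 were within 2-fold, a share of 66.7% near the 60% of all genes. Nfkbia (ENSMUSG00000021025.7, chromosome 12, 55489410 to 55492647, minus strand), the inhibitor IkB-alpha that NF-kB induces, was 235, 258 and 259 CPM in untreated knockout and 303, 334 and 337 CPM in DSS-treated WT mice, with 125, 128 and 138 CPM in untreated WT. It was not called (log2 difference -0.37, 95% interval -0.60 to -0.15, adjusted p = 0.0635), and both groups lay above every untreated WT sample. Relb, the partner subunit of p52, was 48.5, 54.5 and 59 CPM in untreated knockout and 45.2, 45.8 and 49.3 CPM in DSS-treated WT mice (interval -0.09 to 0.50). Birc3, an NF-kB-induced inhibitor of cell death, was 101, 114 and 116 CPM in untreated knockout and 118, 122 and 124 CPM in DSS-treated WT mice (interval -0.45 to 0.16). Neither was called, and for both genes the groups differed by less than 2-fold throughout the interval. The exceptions included Nfkbiz, an inducible nuclear cofactor of NF-kB, with 122, 123 and 123 CPM in untreated knockout and 356, 382 and 397 CPM in DSS-treated WT mice (log2 difference -1.62, adjusted p = 6.75e-07). In the knockout it did not exceed the untreated WT values of 139, 152 and 181 CPM. Tnip3, a binding partner of the ubiquitin editor A20, was 109.5, 114 and 124 CPM in untreated knockout and 203, 204 and 212 CPM in DSS-treated WT mice (log2 difference -0.84, adjusted p = 0.00662). Besides Nfkb2, Tnfrsf1b and Tnfaip3 were called lower by -0.82 and -0.63 on the log2 scale. The call of Tnfaip3 was lost without knockout replicate 2 or 3 or DSS-treated replicate 1 or 3. That of Tnfrsf1b was lost without knockout replicate 1 or DSS-treated replicate 3. Without DSS-treated replicate 3, 3 calls were left, Nfkb2 among them.

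Of 22 tested chemokines and cytokines, 1 was higher and 2 were lower in the untreated knockout. Within 2-fold were 7 (31.8%), against 60% of all genes. At an unadjusted edgeR p under 0.05, 1 was higher and 6 were lower, against 1064 and 1046 of all 12522 genes. Of the 22, 8 had a positive difference. Uncalled members on the lower side included Cxcl2 (log2 difference -2.03), Cxcl5 (-1.69) and Il18 (-0.865), and on the higher side Il33 (1.45) and Ccl7 (1.06). Cxcl1 and Cxcl10, described below, were chosen with their values known. Cxcl1 (ENSMUSG00000029380.11, chromosome 5, 90891241 to 90893115, plus strand), a neutrophil attractant, was 8.75, 8.91 and 13.2 CPM in untreated knockout and 9.46, 9.57 and 10 CPM in DSS-treated WT mice, while untreated WT samples had 0.984, 1.02 and 1.08 CPM. The 2 groups overlapped and their interval was -0.46 to 0.63 around a log2 difference of 0.09. Cxcl10, which attracts T cells, was 7.13, 10.6 and 13.7 CPM in untreated knockout and 8.81, 10.3 and 12.7 CPM in DSS-treated WT mice (log2 difference -0.01, interval -0.77 to 0.74). Ccl6 was 178, 201 and 214 CPM in untreated knockout and 178, 189.6 and 199.8 CPM in DSS-treated WT mice (interval -0.25 to 0.38). Against untreated WT, the log2 difference of Cxcl1 was 3.30 in the untreated knockout (adjusted p = 2.43e-05) and 3.21 in DSS-treated WT (adjusted p = 1.41e-05). Ccl20, an epithelial chemokine for lymphocytes and dendritic cells, exceeded the injured level, with 19.7, 21.9 and 28.4 CPM in untreated knockout and 8.81, 9.47 and 11.7 CPM in DSS-treated WT mice (log2 difference 1.23, adjusted p = 0.00742). Tnf fell short of it, with 11.6, 15 and 15.9 CPM in untreated knockout and 30.4, 31.3 and 32.1 CPM in DSS-treated WT mice (log2 difference -1.14, adjusted p = 0.00766), while untreated WT mice had 2.47, 3.64 and 4.10 CPM. For Tnf the 3 groups thus stood in the order untreated WT, untreated knockout and DSS-treated WT without overlap. Lif, a cytokine of the interleukin 6 family, was 3.17, 4.58 and 7.13 CPM in untreated knockout and 12.2, 12.4 and 14.2 CPM in DSS-treated WT mice (log2 difference -1.38, adjusted p = 0.0276), and its call was lost without any one of the libraries except knockout replicate 3. Ccl2, Ccl3, Il6, Il1a, Il23a, Csf2, Csf3, Cxcl3 and Tslp did not pass the low-count filter.

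The promoters of Cxcl1 and Nfkbia, which were near the injured level, are shown with those of Socs3 and Gbp2, which were below it, because the same classes of motif were searched in all of them. The windows run from 250 bases before to 50 after the gene start in RefSeq GRCm38.p6, 5′ to 3′ on the gene's strand. Capitals mark matches on either strand, overlapping ones included, to a kappaB motif (GGG-NNNNN-CC, the hyphens only setting off the free bases), a STAT motif (TTC-NNN-GAA) or an interferon-type element (GAAA-NN-GAAA).
Cxcl1 (chr5:90890995-90891294, plus strand): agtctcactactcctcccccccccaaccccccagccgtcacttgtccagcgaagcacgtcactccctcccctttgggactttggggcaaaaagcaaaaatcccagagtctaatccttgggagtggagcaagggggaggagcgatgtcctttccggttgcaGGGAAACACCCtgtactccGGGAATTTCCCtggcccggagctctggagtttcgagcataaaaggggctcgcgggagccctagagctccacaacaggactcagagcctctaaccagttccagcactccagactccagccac
Nfkbia (chr12:55492598-55492897, minus strand): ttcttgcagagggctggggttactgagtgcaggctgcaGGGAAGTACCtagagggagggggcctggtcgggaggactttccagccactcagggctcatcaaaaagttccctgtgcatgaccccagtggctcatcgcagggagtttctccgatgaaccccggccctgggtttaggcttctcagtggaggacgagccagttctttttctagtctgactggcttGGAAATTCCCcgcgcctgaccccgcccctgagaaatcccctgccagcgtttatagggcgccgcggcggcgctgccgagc
Socs3 (chr11:117969317-117969616, minus strand): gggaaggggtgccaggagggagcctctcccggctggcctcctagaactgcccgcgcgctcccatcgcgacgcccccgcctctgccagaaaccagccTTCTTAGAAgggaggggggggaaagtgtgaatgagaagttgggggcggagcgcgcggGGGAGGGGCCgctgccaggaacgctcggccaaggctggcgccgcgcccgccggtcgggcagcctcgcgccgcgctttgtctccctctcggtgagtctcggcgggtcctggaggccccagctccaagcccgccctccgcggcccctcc
Gbp2 (chr3:142620413-142620712, plus strand): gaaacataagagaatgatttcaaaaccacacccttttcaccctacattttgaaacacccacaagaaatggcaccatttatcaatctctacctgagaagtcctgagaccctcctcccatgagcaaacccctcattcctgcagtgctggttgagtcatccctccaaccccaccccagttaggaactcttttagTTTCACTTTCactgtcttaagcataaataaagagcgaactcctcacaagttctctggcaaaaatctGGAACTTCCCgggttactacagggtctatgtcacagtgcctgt
Cxcl1 has 2 stretches of kappaB matches, each read on both strands, that start 90 and 71 bases before the gene start, and Nfkbia has 2 matches that start at -212 and -29. Socs3 has a STAT match (TTCTTAGAA) at -154 and a kappaB match at -97, and Gbp2 has an interferon-type element at -59 and a kappaB match at 8. The kappaB motif was frequent, found in 71.9% of the 9473 tested genes with a window, in 65.6% of the 218 higher, 74.3% of the 206 lower and 72.9% of the 5983 genes within 2-fold. The STAT motif was found in 8.42% of all, 6.42% of the higher, 16.5% of the lower and 7.97% of the genes within 2-fold. The interferon-type element was found in 3.93%, 6.88%, 9.71% and 3.79% of these sets, and in 58.8% of 17 members of the interferon-gamma list. In the acute-phase list, 12 of 13 genes with a window held the kappaB motif and 2 the STAT motif. The STAT motif was found in 47.1% of the 17 interferon-gamma members and in 30.4% of 23 members of the NF-kB list. In the cytokine and chemokine list it was found in 0% of 16 genes, and in the sodium, chloride and anion transporter list in 5.26% of 19. Among other promoters searched, those of Lrg1, Osmr and Tnf, which were lower, had kappaB matches and no STAT match. Those of Slc9a3, Aqp8, Car4 and Ccl20, which were higher, had kappaB matches too. Ifit1, also higher, had interferon-type elements. The promoters shown therefore do not stand for a split of motifs by level. A match is a description of the letters, and no test was made of these shares.

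Several acute-phase genes were far below the injured level in the untreated knockout. Of 17 tested, 5 were lower and none were higher, and these 5 were called in every setting tried. Besides Lrg1, Socs3, the feedback inhibitor of STAT3 signalling (ENSMUSG00000053113.3, chromosome 11, 117966079 to 117970047, minus strand), was 15.3, 18.1 and 22.4 CPM in untreated knockout and 78.9, 84.3 and 86.9 CPM in DSS-treated WT mice (log2 difference -2.17, adjusted p = 2.51e-05). The knockout samples lay within the untreated WT range, where Socs3 had 12.1, 19.8 and 23.1 CPM. Lbp, the lipopolysaccharide-binding protein, was 8.32, 8.35 and 9.40 CPM in untreated knockout and 57.2, 72.1 and 77.2 CPM in DSS-treated WT mice (log2 difference -2.98, adjusted p = 3.80e-05). The complement component C3 was 37.7, 39.8 and 45.1 CPM in untreated knockout and 108, 122 and 148 CPM in DSS-treated WT mice (log2 difference -1.62, adjusted p = 0.000197). The oncostatin M receptor Osmr was 2.08, 2.29 and 4.99 CPM in untreated knockout and 10.5, 14.4 and 16.3 CPM in DSS-treated WT mice (log2 difference -2.13, adjusted p = 0.00265). Stat3 itself was not called, at 228, 229 and 260.2 CPM in untreated knockout and 289, 300.2 and 312 CPM in DSS-treated WT mice (log2 difference -0.33, interval -0.52 to -0.14, adjusted p = 0.0534). The receptor chains Il6st, Il10rb, Il11ra1 and Il22ra1 were within 2-fold. Saa1 was 64.8, 100 and 115 CPM in untreated knockout and 33.1, 41.6 and 48.9 CPM in DSS-treated WT mice, uncalled (interval 0.45 to 1.90), and 31.5% of its sequence is shared with other genes.

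Secreted antimicrobial proteins were lower for 5 and higher for 1 of 20 tested members, and 9 were within 2-fold. Beyond Reg3b, Pla2g2a was 2.56, 2.61 and 3.42 CPM in untreated knockout and 26, 28.7 and 33.1 CPM in DSS-treated WT mice (log2 difference -3.34, adjusted p = 0.000114). The annotation classes Pla2g2a as a polymorphic pseudogene, so its transcript may not yield a protein. Reg3g was 20.2, 24.1 and 28.8 CPM in untreated knockout and 88, 88.2 and 128 CPM in DSS-treated WT mice (log2 difference -2.05, adjusted p = 0.0129). The protease inhibitor Slpi (-2.32) and lactoferrin, Ltf (-2.24), completed the lower members, and 3 of the 5 remained called without knockout replicate 1 or 3 or DSS-treated replicate 1. Reg4, another lectin of the family, was 361, 422 and 475 CPM in untreated knockout and 194, 204 and 245 CPM in DSS-treated WT mice (log2 difference 0.97, adjusted p = 0.0285), with its call lost without knockout replicate 2 or 3 or DSS-treated replicate 1 or 3. Other members stood at a similarly reduced level in both groups. Ang4, an angiogenin with antibacterial activity, was 65.4, 96.6 and 97 CPM in untreated knockout and 82.6, 88.7 and 119 CPM in DSS-treated WT mice, against 175, 408 and 514 CPM in untreated WT (interval -0.79 to 0.46). Itln1, which binds microbial sugars, was 12.8, 12.8 and 12.9 CPM in untreated knockout and 11.4, 14.3 and 15.9 CPM in DSS-treated WT mice, against 35.4, 49 and 70.4 CPM in untreated WT (interval -0.64 to 0.41). Against untreated WT, the log2 difference of Ang4 was -2.08 in the untreated knockout (adjusted p = 0.00111) and -1.92 in DSS-treated WT (adjusted p = 0.000877).

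Of 10 tested genes for enzymes of nitric oxide and superoxide and their partners, 3 were lower in the untreated knockout and none were higher. Nos2, the inducible nitric oxide synthase, was 20.6, 20.8 and 23.8 CPM in untreated knockout and 42.9, 50.5 and 54.2 CPM in DSS-treated WT mice (log2 difference -1.18, adjusted p = 0.00266), and it stood above the untreated WT values of 4.92, 4.96 and 7.73 CPM. Duox2, the epithelial superoxide and peroxide generator, was 44.5, 54.1 and 57 CPM in untreated knockout and 81.5, 125 and 125 CPM in DSS-treated WT mice (log2 difference -1.09, adjusted p = 0.00118). Its maturation factor Duoxa2 was 9.03, 13.4 and 14.1 CPM in untreated knockout and 65.7, 66.3 and 68 CPM in DSS-treated WT mice. These 3 were called in every setting. Nox1, a superoxide-generating oxidase, had the opposite sign with 174, 189.7 and 191 CPM in untreated knockout and 100.4, 101 and 111 CPM in DSS-treated WT mice, and was not called (log2 difference 0.83, interval 0.31 to 1.34, adjusted p = 0.0718), though 3 of 12 other settings called it higher. In tryptophan breakdown, Ido1 was 10.9, 11.8 and 12.1 CPM in untreated knockout and 88.4, 89.6 and 128 CPM in DSS-treated WT mice. The tryptophanyl-tRNA synthetase Wars, which is also interferon-induced, was 285, 288 and 304 CPM in untreated knockout and 474, 512 and 552 CPM in DSS-treated WT mice (log2 difference -0.81, adjusted p = 0.000101). These were the lower genes of 7 tested. Kyat1, which acts on kynurenine, was higher by 0.82 on the log2 scale and lost its call without knockout replicate 1 or 2 or DSS-treated replicate 2 or 3.

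**Figure D4:**
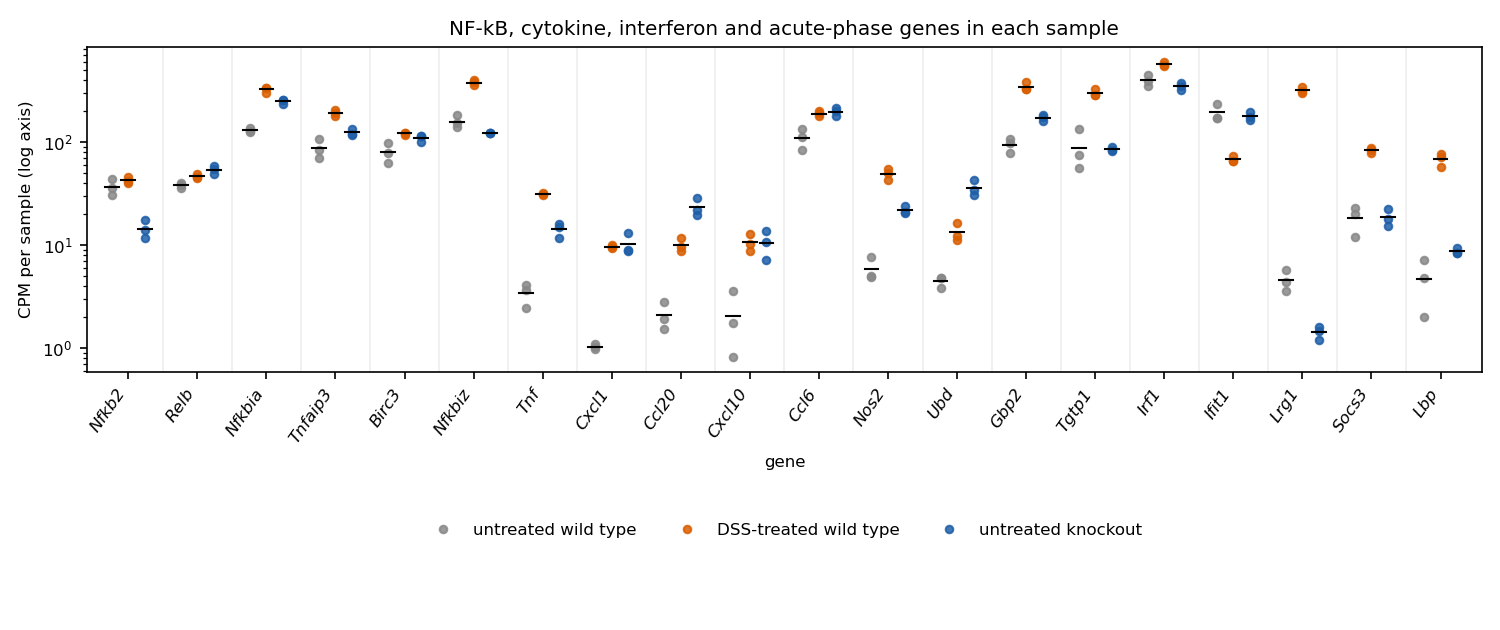
CPM on a log axis in each sample for inflammatory genes in untreated WT, DSS-treated WT and untreated knockout samples. Cxcl1 and Cxcl10 overlap between the last 2 groups, Ccl20 and Ubd are higher in the untreated knockout, and Socs3 and Lrg1 are at or below the untreated WT level.

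Interferon-gamma-inducible genes had the largest share of lower members of the 42 lists. Of 23 tested, 14 were lower (against 2.2% of all genes) and 1 was higher, and the median log2 difference was -0.657. Gbp2 (ENSMUSG00000028270.11, chromosome 3, 142620602 to 142638008, plus strand), a guanylate-binding GTPase that attacks intracellular microbes, was 158, 174 and 182 CPM in untreated knockout and 326, 329 and 380.1 CPM in DSS-treated WT mice (log2 difference -1.01, adjusted p = 0.000245), and untreated WT samples had 77.8, 97 and 107 CPM. Irf8, a transcription factor of this response, was 138, 140 and 163 CPM in untreated knockout and 277, 288 and 303 CPM in DSS-treated WT mice (log2 difference -0.98, adjusted p = 3.80e-05). Irf1 was 322, 347 and 375 CPM in untreated knockout and 548, 564 and 603 CPM in DSS-treated WT mice (log2 difference -0.72, adjusted p = 0.00082). In both the knockout did not exceed untreated WT, where Irf8 had 179, 198 and 201 and Irf1 349.7, 396 and 448 CPM. Tgtp1 was 82.7, 84.7 and 89.3 CPM in untreated knockout and 285, 288 and 329 CPM in DSS-treated WT mice, though 81.2% of its sequence is shared with other genes. Socs1, an inhibitor of interferon signalling, was 3.66, 5.79 and 6.77 CPM in untreated knockout and 16.7, 16.9 and 20.4 CPM in DSS-treated WT mice (log2 difference -1.73, adjusted p = 0.00814). The opposite direction was seen for Ubd, a ubiquitin-like modifier that responds to both interferon-gamma and TNF, with 31, 34.2 and 42.6 CPM in untreated knockout and 11.2, 12.3 and 16.3 CPM in DSS-treated WT mice (log2 difference 1.44, adjusted p = 0.0015) and 3.86, 4.76 and 4.81 CPM in untreated WT. The receptor chains Ifngr1 and Ifngr2 and the kinase Jak1 were within 2-fold. Leaving out 1 library left 9 to 13 lower calls, with 9 without knockout replicate 1 or DSS-treated replicate 3, and 8 genes were called in every setting.

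Type I interferon-stimulated genes did not share that direction. Of 35 tested, 4 were higher and 4 lower, 29 were within 2-fold (82.9%), and the median was 0.069. Ifit1, which binds viral RNA, was 164, 174 and 197 CPM in untreated knockout and 65, 65.6 and 73.7 CPM in DSS-treated WT mice (log2 difference 1.39, adjusted p = 2.37e-05). Untreated WT had 172, 173 and 236 CPM, so that for Ifit1 the knockout kept the uninjured level. Oasl1 (0.74) and Rsad2 (0.91) were higher too, whereas Mx1 was 15.6, 16.4 and 17.1 CPM in untreated knockout and 29.8, 31.3 and 32.1 CPM in DSS-treated WT mice (log2 difference -0.93, adjusted p = 0.0122, lost without knockout replicate 1). Zbp1 was 139.7, 140.2 and 142 CPM in untreated knockout and 193, 202 and 233 CPM in DSS-treated WT mice (log2 difference -0.57, adjusted p = 0.00554). The lower calls numbered 1 without knockout replicate 1 and 2 without knockout replicate 3 or DSS-treated replicate 2 or 3. In antigen presentation, 17 of 19 class I genes and 9 of 9 class II genes were within 2-fold. In class I, 1 gene was higher, the non-classical H2-T3 (log2 difference 0.87, adjusted p = 0.0467), and its call was lost when any one library other than DSS-treated replicate 3 was left out. Tap1, the peptide transporter of class I, was lower at 328, 336 and 354 CPM in untreated knockout and 469, 476 and 517 CPM in DSS-treated WT mice (log2 difference -0.52, adjusted p = 0.00317). H2-Aa of class II was higher at 655, 777 and 893 CPM in untreated knockout and 512, 537 and 569.8 CPM in DSS-treated WT mice (log2 difference 0.52, adjusted p = 0.036), a call that held without knockout replicate 1 and was lost without each of the other 5 libraries.

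Of 32 tested sodium, chloride and anion transporters, 13 were higher and 1 was lower in the untreated knockout, with a median of 0.455. Slc26a3, the chloride-bicarbonate exchanger of colonocytes, was 1137, 1140 and 1186 CPM in untreated knockout and 362, 399 and 440.3 CPM in DSS-treated WT mice (log2 difference 1.53, adjusted p = 2.26e-05), and untreated WT had 839, 1212 and 1361 CPM. Sgk1, a kinase that raises sodium transport, was 132, 153 and 167 CPM in untreated knockout and 37, 38 and 40.4 CPM in DSS-treated WT mice (log2 difference 1.97, adjusted p = 2.35e-07). Atp12a, the colonic proton-potassium pump, was 820.5, 859.5 and 869 CPM in untreated knockout and 336, 342 and 347 CPM in DSS-treated WT mice (log2 difference 1.31, adjusted p = 0.000191), above the untreated WT values of 271, 416 and 484 CPM. Slc9a2 and its regulator Slc9a3r1 were higher by 0.76 and 0.76 on the log2 scale. The lower member, Clca4b, was 80.4, 84.4 and 86.4 CPM in untreated knockout and 605, 636 and 671 CPM in DSS-treated WT mice. Its neighbour Clca4a had the opposite order, with 49.7, 54.4 and 58 CPM in untreated knockout and 8.35, 9.47 and 10.1 CPM in DSS-treated WT mice, and 24.8% and 41.0% of their sequences are shared with other genes. Without 1 library, 9 or 10 of the higher calls remained above the threshold, and Scnn1g, Best2, Kcnq1 and Atp1b3 were among those lost, each without 5 or more of the 6 libraries.

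Among 12 aquaporins and carbonic anhydrases, 6 were higher and none lower. Car1, the abundant cytosolic carbonic anhydrase of colonocytes, was 2403, 2444 and 2809 CPM in untreated knockout and 1177, 1432 and 1578 CPM in DSS-treated WT mice (log2 difference 0.87, adjusted p = 0.00133). Here the untreated knockout was also well below the untreated WT values of 6062, 6994 and 8149 CPM (log2 difference -1.47, adjusted p = 1.79e-05). Car12 was 62.3, 67.9 and 68.4 CPM in untreated knockout and 24.9, 30 and 39.8 CPM in DSS-treated WT mice (log2 difference 1.07, adjusted p = 0.00423), and untreated WT samples had 134, 136 and 154 CPM. For Car1 and Car12 the untreated knockout was therefore between the other groups without overlap. Car2 was 1905, 2016 and 2045 CPM in untreated knockout and 1199, 1230 and 1237 CPM in DSS-treated WT mice (log2 difference 0.70, adjusted p = 0.000314). Aqp1, called at 1.46, lost its call without knockout replicate 1 or any DSS-treated replicate.

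**Figure D5:**
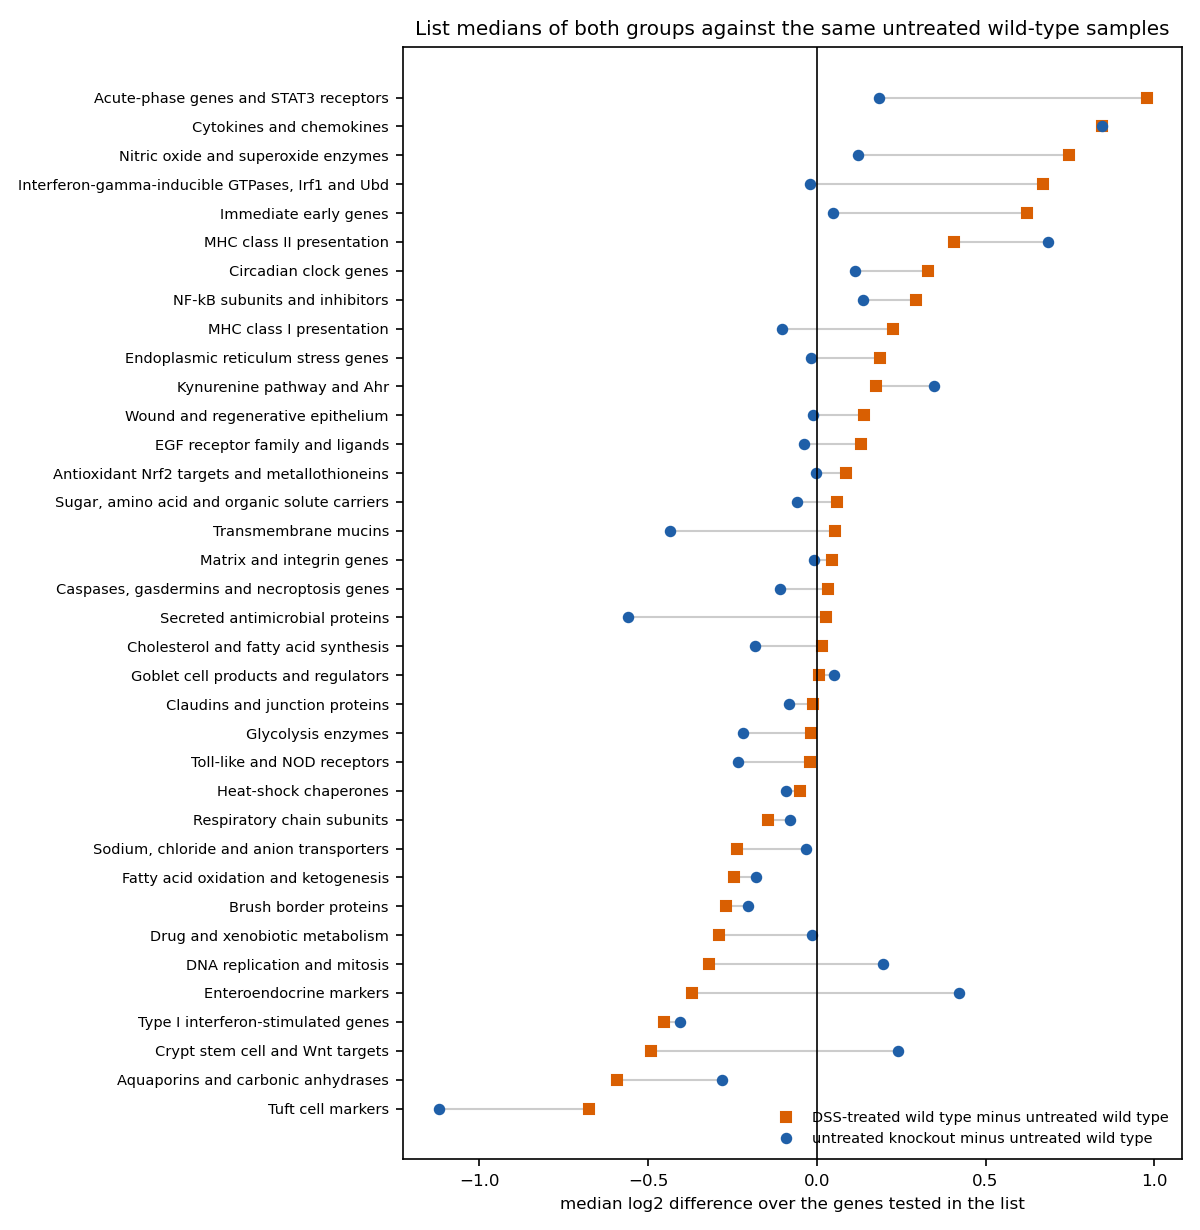
Median log2 difference over a list's tested members in untreated knockout minus untreated WT and in DSS-treated WT minus untreated WT samples. The cell type marker lists are left out. The comparisons share the untreated WT samples. For transporters the medians drawn are -0.0333 and -0.236, and for the interferon-gamma list they are -0.0194 and 0.669. The medians of untreated knockout minus DSS-treated WT for these lists, 0.455 and -0.657, are not drawn.

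Brush border and drug-metabolising genes of surface colonocytes were higher in the untreated knockout for a part of each list. Of 28 brush border proteins, 4 were higher and 1 lower in every setting without 1 library. Alpi, intestinal alkaline phosphatase, was 16.3, 17.5 and 20.3 CPM in untreated knockout and 2.73, 4.24 and 7.60 CPM in DSS-treated WT mice (log2 difference 1.87, adjusted p = 0.0016). The meprin Mep1b was 132, 142 and 144 CPM in untreated knockout and 71.1, 78.2 and 81.1 CPM in DSS-treated WT mice (log2 difference 0.86, adjusted p = 0.00133). Myo1d, a motor of the microvillus, was lower at 293, 305 and 312 CPM in untreated knockout and 405, 433 and 473 CPM in DSS-treated WT mice (log2 difference -0.53, adjusted p = 0.00384). Of 60 genes of drug and xenobiotic metabolism, 16 were higher and 1 lower (12 to 14 higher without 1 library). The lower call was lost without knockout replicate 1 or 3 or DSS-treated replicate 1 or 3. Cyp4f14, a fatty acid hydroxylase, was 141, 151 and 157 CPM in untreated knockout and 53.3, 56.3 and 60.3 CPM in DSS-treated WT mice (log2 difference 1.40, adjusted p = 1.37e-05). The efflux pump Abcg2 was 115, 116 and 153 CPM in untreated knockout and 47.1, 57.5 and 59.5 CPM in DSS-treated WT mice (log2 difference 1.23, adjusted p = 0.000624). Gstm1, a glutathione transferase, was 385, 432 and 464 CPM in untreated knockout and 196, 202 and 230.4 CPM in DSS-treated WT mice (log2 difference 1.03, adjusted p = 7.99e-05), above the untreated WT values of 178, 185 and 208 CPM. Cyp2c55 was 539, 570.5 and 631 CPM in untreated knockout and 287, 328 and 372 CPM in DSS-treated WT mice (log2 difference 0.82, adjusted p = 0.00266), far below the untreated WT values of 1879, 2169 and 2686 CPM. For Cyp2c55 the log2 differences from untreated WT were -1.95 in the untreated knockout and -2.77 in DSS-treated WT (adjusted p = 2.66e-06 and 2.30e-08). The peptide transporter Slc15a1 was 34.5, 42.3 and 44.3 CPM in untreated knockout and 5.62, 11.2 and 12.1 CPM in DSS-treated WT mice (log2 difference 2.06, adjusted p = 0.000681). The nucleoside carrier Slc28a3 was 22.4, 22.6 and 27.7 CPM in untreated knockout and 58, 71.1 and 90.7 CPM in DSS-treated WT mice (log2 difference -1.59, adjusted p = 0.0015), among 42 solute carriers of which 5 were higher and 2 lower. Without 1 library the higher calls were 4 without DSS-treated replicate 2 or 3 and 3 otherwise, and the lower ones 2 without DSS-treated replicate 2 and 1 otherwise.

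In energy metabolism, 7.89% of the fatty acid oxidation genes and 7.14% of the glycolysis genes were called, against 4.47% of all genes. None of 61 respiratory chain subunits was called by edgeR, none had an unadjusted p under 0.05, none was called by DESeq2, and 57 were within 2-fold (93.4%). Atp5a1, the alpha subunit of ATP synthase, was 2297, 2475 and 2559 CPM in untreated knockout and 2181, 2450 and 2476 CPM in DSS-treated WT mice (interval -0.16 to 0.25). Of 38 genes of fatty acid oxidation and ketogenesis, 3 were higher. Fabp2, which carries fatty acids in the cytosol, was 53.9, 65.6 and 79.7 CPM in untreated knockout and 18, 18.2 and 21.2 CPM in DSS-treated WT mice (log2 difference 1.79, adjusted p = 0.000968). Slc27a2 was 19.7, 24.1 and 26 CPM in untreated knockout and 2.27, 3.91 and 5.47 CPM in DSS-treated WT mice. The third, Etfdh, lost its call without any one of the 6 libraries. Among 28 glycolysis genes 2 were higher and 22 were within 2-fold. Eno3, an enolase, was 365, 392 and 407 CPM in untreated knockout and 189.7, 207 and 213 CPM in DSS-treated WT mice (log2 difference 0.93, adjusted p = 0.00158). Of 37 genes of cholesterol and fatty acid synthesis, 5 were lower, led by the feedback sensor Insig1 at 77.3, 85.8 and 96.4 CPM in untreated knockout and 129, 139 and 148 CPM in DSS-treated WT mice (log2 difference -0.68, adjusted p = 0.00456). Only 1 to 3 of these remained without 1 library, with 1 without DSS-treated replicate 1, 3 without DSS-treated replicate 2 and 2 in the other cases.

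Goblet cell genes were mostly within 2-fold, with 27 of 35 tested in that range, 2 higher and 1 lower. St6galnac1, a sialyltransferase that caps mucin sugars, had 0 counts in the 3 DSS-treated WT samples and 126, 128 and 131 CPM in the knockout, at least 287-fold higher when 3 counts per library are taken as the floor. Untreated WT samples had 0, 0 and 2.01 CPM, so it was at or near 0 in both WT groups, and 34.9% of its sequence is shared with the pseudogene Gm11735. Gcnt3, which branches mucin sugars, was 169.5, 182 and 199 CPM in untreated knockout and 119, 119.5 and 125 CPM in DSS-treated WT mice (log2 difference 0.60, adjusted p = 0.00623). Fut2, which adds fucose to them, was 262, 262 and 266 CPM in untreated knockout and 421, 452 and 458 CPM in DSS-treated WT mice (log2 difference -0.75, adjusted p = 0.00691). Of 21 claudins and junction proteins 19 were within 2-fold. The pore-forming claudin Cldn2 was 239, 254 and 269.9 CPM in untreated knockout and 138, 142 and 159 CPM in DSS-treated WT mice (log2 difference 0.80, adjusted p = 0.0295), but lost its call without any one library.

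A part of the genes of the crypt and of cell division was higher in the untreated knockout. Of 65 genes of DNA replication and mitosis, 17 were higher and 2 lower, the median log2 difference was 0.591, and 41 had an unadjusted p under 0.05 on the higher side. Cdk1, the kinase that drives mitosis, was 66.6, 75.5 and 84.7 CPM in untreated knockout and 42, 42.9 and 48.6 CPM in DSS-treated WT mice (log2 difference 0.76, adjusted p = 0.00375). Cdc20, which activates the anaphase-promoting complex, was 156, 159 and 175 CPM in untreated knockout and 95.1, 103 and 104 CPM in DSS-treated WT mice (log2 difference 0.70, adjusted p = 0.0049). Mki67, the Ki-67 antigen of cycling cells, was 118, 138 and 139.7 CPM in untreated knockout and 72.9, 74.1 and 81.7 CPM in DSS-treated WT mice (log2 difference 0.79, adjusted p = 0.0312), a call lost without 5 of the 6 libraries. The cyclin D1 gene Ccnd1 was lower, at 72.1, 76.6 and 83.6 CPM in untreated knockout and 153, 158 and 166 CPM in DSS-treated WT mice (log2 difference -1.04, adjusted p = 9.93e-05). The other lower member, E2f2, a transcription factor of S phase entry, was 30.9, 33.7 and 38.9 CPM in untreated knockout and 62.1, 66.9 and 72.6 CPM in DSS-treated WT mice (log2 difference -0.96, adjusted p = 0.00101). The number of higher calls changed with the setting. It was 7, 8 and 7 without knockout replicate 1, 2 or 3, and 7, 8 and 4 without DSS-treated replicate 1, 2 or 3. With only the 6 samples compared it was 27, without a low-count filter 25, with the DESeq2 Wald test 22 and with the replicate block 12. Of 23 crypt stem cell genes and Wnt targets, 6 were higher. The stem cell receptor gene Lgr5 was 13.2, 19 and 21.7 CPM in untreated knockout and 0, 0.667 and 3.19 CPM in DSS-treated WT mice (log2 difference 3.78, adjusted p = 0.0343). The stem cell factor Ascl2 was 6.19, 9.03 and 9.89 CPM in untreated knockout and 0.4, 1.37 and 1.47 CPM in DSS-treated WT mice (log2 difference 2.96, adjusted p = 0.0408), a call lost without any one library. Lgr5 was also low and scattered in untreated WT, at 0.328, 4.52 and 9.27 CPM, and was not called by DESeq2 or in 5 of the 6 fits without 1 library. Smoc2, a secreted crypt protein, was 52, 61.1 and 66.1 CPM in untreated knockout and 16.3, 19 and 20.6 CPM in DSS-treated WT mice (log2 difference 1.68, adjusted p = 0.00772) and was called in every setting. Of the 6 calls, 2 were left without knockout replicate 1 and 3 without any other library.

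A part of the wound-associated and stress genes was lower in the untreated knockout. Of 25 genes of wound and regenerative epithelium, 6 were lower and 1 higher. Plet1, a surface protein of migrating epithelium, was 22.9, 23.7 and 25.8 CPM in untreated knockout and 174, 184 and 204 CPM in DSS-treated WT mice (log2 difference -2.95, adjusted p = 1.11e-07), below the untreated WT values of 65.5, 86.3 and 100.1 CPM. Anxa8 was 46.7, 48.1 and 50.3 CPM in untreated knockout and 95.9, 120.3 and 121 CPM in DSS-treated WT mice (log2 difference -1.22, adjusted p = 0.00724). The keratin Krt7 was 96.3, 107 and 107 CPM in untreated knockout and 165, 169 and 176 CPM in DSS-treated WT mice (log2 difference -0.72, adjusted p = 0.000699). Emp1, a membrane protein, was the higher member at 445, 467 and 505 CPM in untreated knockout and 110.1, 113 and 129.7 CPM in DSS-treated WT mice (log2 difference 2.00, adjusted p = 4.02e-07), and untreated WT had 679, 854 and 1029 CPM. For Emp1 the 3 groups stood apart, with DSS-treated WT lowest and untreated WT highest. Without 1 library, 3 to 5 lower calls remained, 3 of them without DSS-treated replicate 3 and 4 without any knockout replicate or DSS-treated replicate 2. The growth factor gene Hbegf was 128, 135 and 148 CPM in untreated knockout and 283, 283 and 286 CPM in DSS-treated WT mice (log2 difference -1.05, adjusted p = 1.37e-05).

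Of 28 immediate early genes, which respond within minutes to stress, handling or growth factors, 8 were lower and none higher (7 or 8 without 1 library). Zfp36, which destabilises cytokine mRNA, was 167, 174 and 187 CPM in untreated knockout and 331, 354 and 376 CPM in DSS-treated WT mice (log2 difference -1.01, adjusted p = 2.99e-05). Jun was 813, 816 and 817 CPM in untreated knockout and 1226, 1238 and 1278 CPM in DSS-treated WT mice (log2 difference -0.61, adjusted p = 0.000784). For Jun the knockout lay within the untreated WT range of 718, 789 and 918 CPM. Of 24 heat-shock chaperones 3 were lower, all in every setting, and 17 were within 2-fold. Hspa1a was 3.09, 4.52 and 4.71 CPM in untreated knockout and 45.9, 47.1 and 62 CPM in DSS-treated WT mice, below the untreated WT values of 38.9, 40.2 and 45.6 CPM. Dnajb1, its co-chaperone, was 98.1, 100.4 and 105 CPM in untreated knockout and 210.4, 219.7 and 226 CPM in DSS-treated WT mice (log2 difference -1.11, adjusted p = 5.65e-06). Hspa4l was 91.2, 106 and 112 CPM in untreated knockout and 156, 169.5 and 189 CPM in DSS-treated WT mice (log2 difference -0.74, adjusted p = 0.00266), and for the last 2 the knockout was near the untreated WT values. In the endoplasmic reticulum stress list, 5 of 30 were lower and 29 within 2-fold. Calr, a lectin chaperone, was 323, 345 and 352 CPM in untreated knockout and 518, 527 and 530.1 CPM in DSS-treated WT mice (log2 difference -0.63, adjusted p = 0.000801). Hyou1, a chaperone of the same compartment, was 35.6, 41.7 and 47.9 CPM in untreated knockout and 72.7, 90.5 and 101 CPM in DSS-treated WT mice (log2 difference -1.07, adjusted p = 0.00166). These 2 remained without knockout replicate 1 or 3 or DSS-treated replicate 1 or 3, with 3 and 4 calls without the other libraries.

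Transcripts of non-epithelial cells were few in counts, and the T lymphocyte, shared leukocyte and myeloid sums did not overlap between the groups. The 16 B and plasma cell markers summed to 340 to 390 CPM in the knockout and 345 to 359 CPM in the DSS-treated WT samples, and the 22 stromal, endothelial, muscle and glial markers to 19.2 to 33.3 and 30.1 to 40 CPM, both overlapping. Of 22 tested T lymphocyte markers, 21 had a positive difference and 3 were called higher. Cd69, an early activation antigen, was 9.74, 9.77 and 17.4 CPM in untreated knockout and 3.47, 4.40 and 5.22 CPM in DSS-treated WT mice (log2 difference 1.49, adjusted p = 0.0151). Cd7 was 4.85, 7.08 and 7.13 CPM in untreated knockout and 0.911, 1.63 and 2.00 CPM in DSS-treated WT mice (log2 difference 2.05, adjusted p = 0.014). Il2rb, a receptor chain for interleukins 2 and 15, was 6.54, 6.73 and 7.57 CPM in untreated knockout and 1.47, 2.28 and 2.40 CPM in DSS-treated WT mice (log2 difference 1.75, adjusted p = 0.0321). None of these was called without DSS-treated replicate 1, and 1 was called without each other library. In the summed T lymphocyte markers the DSS-treated samples lay between untreated WT and the knockout. Rgs1, a signalling regulator of activated leukocytes, was 41.4, 43 and 45.4 CPM in untreated knockout and 9.46, 16.5 and 16.7 CPM in DSS-treated WT mice (log2 difference 1.60, adjusted p = 0.00141), and untreated WT had 4.17, 5.91 and 7.00 CPM. Of 5 tested B and plasma cell markers, 3 were lower (2 without knockout replicate 1 and 1 without each other library). Igha was 4.58, 5.62 and 7.96 CPM in untreated knockout and 42.5, 43.9 and 50 CPM in DSS-treated WT mice (log2 difference -2.90, adjusted p = 0.00363). The joining chain of its antibody, Jchain, was 1.07, 3.05 and 3.63 CPM in untreated knockout and 9.07, 10.3 and 11.4 CPM in DSS-treated WT mice (log2 difference -1.99, adjusted p = 0.0253). Jchain lost its call without 5 of the 6 libraries. The remaining tested members had the opposite sign and were not called. Ighm, the immunoglobulin M chain, was 6.54, 6.59 and 10.5 CPM in untreated knockout and 1.67, 2.53 and 2.94 CPM in DSS-treated WT mice (log2 difference 1.72, adjusted p = 0.197). Sdc1, which epithelium also expresses, was 308, 334 and 366 CPM in untreated knockout and 262, 266 and 282 CPM in DSS-treated WT mice (log2 difference 0.31, adjusted p = 0.117) and made up most of the summed level. Of 16 tested myeloid markers, Cd14, which the epithelium can also express, was lower at 110, 115 and 119.5 CPM in untreated knockout and 166, 173 and 188 CPM in DSS-treated WT mice (log2 difference -0.62, adjusted p = 0.00278). Cd14 was the only myeloid marker called, and it made up most of the summed myeloid level in both groups. No tuft cell marker of 16 tested was called by edgeR (1 had an unadjusted p under 0.05, on the lower side) or by DESeq2, and none was within 2-fold, so the tuft cell genes are undecided at these levels. No stromal marker of 6 tested and no matrix or integrin gene of 23 was called, with 3 higher and 3 lower matrix genes at an unadjusted p under 0.05 and 1 called higher by DESeq2.

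In the remaining lists the share called was 20% for epithelial, 15.4% for enteroendocrine, 11.1% for EGF receptor and 10% for cell death genes. It was 3.57% for antioxidant genes, 3.85% for Toll-like and NOD receptors and 0 for clock genes, against 4.47% of all genes. Of 15 epithelial markers, Krt20, a keratin of surface cells, was higher at 1784, 1913 and 1953 CPM in untreated knockout and 893, 922 and 1070 CPM in DSS-treated WT mice (log2 difference 0.97, adjusted p = 0.000175). The intestinal transcription factor gene Cdx2 was higher at 174, 178 and 179 CPM in untreated knockout and 85.3, 87.6 and 90.5 CPM in DSS-treated WT mice (log2 difference 1.01, adjusted p = 0.000652). Elf3, an epithelial transcription factor induced by injury, was lower at 885, 959 and 998 CPM in untreated knockout and 1354, 1371 and 1433 CPM in DSS-treated WT mice (log2 difference -0.55, adjusted p = 0.00369), and 12 of the list were within 2-fold. Of 13 enteroendocrine markers, 12 had a positive difference, the median was 0.911 and none was within 2-fold. At an unadjusted edgeR p under 0.05, 5 were higher and 1 lower. Tac1 was called lower and 1 was called higher. This was the granule protein gene Chgb, at 56, 68.8 and 79.7 CPM in untreated knockout and 26.7, 29.2 and 31.1 CPM in DSS-treated WT mice (log2 difference 1.23, adjusted p = 0.00119). Of 18 EGF receptors and ligands, Erbb3 was lower beside Hbegf (log2 difference -0.56, adjusted p = 0.0241), a call lost without 5 of the 6 libraries. Of 30 caspase, gasdermin and necroptosis genes, 3 were lower, among them Zbp1 and the death receptor gene Fas (log2 difference -0.85, adjusted p = 0.0084), and 25 were within 2-fold. These fell to 1 call without knockout replicate 3 and 2 without each other library. Among 28 antioxidant genes, Pgd was lower (log2 difference -0.42, adjusted p = 0.0365) and lost its call without any one library. Of 26 Toll-like and NOD receptors and cofactors, Cd14 was lower and 19 were within 2-fold. None of 14 circadian clock genes was called by edgeR, with 3 lower at an unadjusted p under 0.05 and 1 called lower by DESeq2.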

How the data were processed

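RNA of colonic epithelial cells was sequenced by a full-length method without strand information or molecular identifiers, per the labels' protocols. The deposited values are whole-number read counts per gene, made with STAR 2.5.2b and featureCounts 1.5.0 on GRCm38 (mm10), per the submitters' processing notes, and their values show no normalization. Of 46517 gene IDs, 46005 matched GENCODE M21, which gave symbols and coordinates. All 12 samples were fitted with edgeR 4.0.16 (R 4.3.3): filterByExpr kept 12522 genes with 99.8% of counts, TMM scaled the libraries, each group had 1 coefficient, and contrasts were tested by the two-sided quasi-likelihood F test with Benjamini-Hochberg adjustment, called at 0.05. Every adjusted p in the text is from this test. A gene was within 2-fold when its 95% interval lay within 1 log2 unit of 0. Distances used log2 CPM with a prior count of 2. Promoter motifs were searched in RefSeq GRCm38.p6 windows.

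The labels say 3 biological replicates per group. Pairs of replicates differed by a chi-square of 6.51 to 27 per degree of freedom, so each was counted as its own sample. The sample numbers 1 to 3 come from the titles. The deviations of same-numbered samples correlated at -0.0212, -0.0348 and -0.154 in the 2 groups compared, so the numbers were not taken as pairs. The fit was tested on simulated counts with known changes. Floors of 3 counts cover counting error only.

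Named genes are Nfkb2, the 12 higher and 12 lower genes with the largest difference (mean log2 CPM of at least 3, no overlap), and per list up to 5 called members by p and 3 uncalled members by level. Further list members were named to account for a list or, like Relb, Cxcl1 and Cxcl10, with their values known. The members, the lists and the tests were chosen with earlier results of these data known. Alternatives were DESeq2 size factors, DESeq2 1.42.0, other count filters, only the 6 samples, a replicate block, a 2-fold threshold and leaving out each library. The DSS-treated knockout samples entered the fit and are not described. A few genes counted in the lists are not reported here by name.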

Additional observations from a re-analysis of the deposited data

How the results depend on the processing

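The 560 calls between untreated knockout and DSS-treated WT mice became 844 with the DESeq2 Wald test, 894 with only the 6 samples compared and 252 with a 2-fold threshold, and 305 to 393 without 1 library. They were 568 with DESeq2 size factors, 829 without a low-count filter and 557 with at least 10 counts in 3 samples. With the replicate block 481 genes were called, 472 of them among the 560. The share of higher calls ranged from 47.8% to 56%. Within 1.5-fold rather than 2-fold there were 3635 genes in place of 7508. Against untreated WT, the 436 calls of the untreated knockout became 703 without a filter, 790 with DESeq2, 195 with only the 6 samples, 204 with a 2-fold threshold, 345 with the replicate block and 212 to 725 without 1 library. The 789 calls of DSS-treated WT became 467, 358 and 695 with only the 6 samples, a 2-fold threshold and the replicate block, and 483 to 958 without 1 library. The 725 and the 958 both came without untreated WT replicate 3. Leaving out any other library gave 212 to 329 and 483 to 633 calls, respectively. The cause of these shifts was not tested. The nearness of the untreated knockout to DSS-treated WT samples (-0.0469) turned to 0.0515 when the spread within groups was subtracted, an alternative chosen after seeing the data. It stayed negative at -0.0338 over the 1000 genes with the highest mean, -0.0274 with a prior count of 5, -0.0467 with DESeq2 size factors and -0.0359 to -0.0584 without 1 knockout library. Of 186 named or listed genes called, 113 were called in every setting and 73 lost the call in at least 1, and none reversed. At these depths, genes near 3 counts per library and changes under 2-fold are often undecided.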

Other observations

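Several of the largest differences belong to genes on none of the lists, and those given here were chosen after their values were seen. BC018473, which lies between Gm11735 and St6galnac1 on chromosome 11 (ENSMUSG00000056032.11, chromosome 11, 116752167 to 116759373, plus strand), was 28.6, 29.8 and 31.2 CPM in untreated knockout and 0.163, 0.4 and 0.911 CPM in DSS-treated WT mice (log2 difference 5.87, adjusted p = 5.03e-05). Untreated WT samples had 0, 1.46 and 2.78 CPM, so these 3 neighbours were each high in the knockout and low in both WT groups. The pseudogene Gm11735 shares 53.4% of its sequence with St6galnac1, and St6galnac1 shares 34.9% with Gm11735. Their counts may thus not be separate observations. Pdzd7, on chromosome 19 like Nfkb2, had 0 counts in the 3 untreated knockout samples and 7.07, 8.96 and 10.4 CPM in the DSS-treated WT samples, at least 23.5-fold lower against a floor of 3 counts per library, and untreated WT samples had 13.8, 15.4 and 18.2 CPM.

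The transcription factor genes Etv4 and Etv5 were higher in the untreated knockout, with 13.2, 13.8 and 16.2 CPM in untreated knockout and 2.27, 2.28 and 3.34 CPM in DSS-treated WT mice for Etv4 (log2 difference 2.44, adjusted p = 0.00101) and 21.9, 23.7 and 31.5 CPM in untreated knockout and 5.20, 6.36 and 9.57 CPM in DSS-treated WT mice for Etv5 (log2 difference 1.87, adjusted p = 0.00814). Dpep1, a brush border dipeptidase, was 344, 353 and 384 CPM in untreated knockout and 88.1, 91.7 and 100.5 CPM in DSS-treated WT mice (log2 difference 1.95, adjusted p = 6.75e-07), with 531, 719 and 815 CPM in untreated WT. Pmp22, a membrane protein of epithelial junctions and myelin, was 748, 769 and 800.3 CPM in untreated knockout and 199.9, 223 and 235 CPM in DSS-treated WT mice (log2 difference 1.82, adjusted p = 9.59e-06), near the untreated WT values of 536, 889.7 and 926 CPM.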
